A study of Mus musculus with 9 samples.

Results

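The 10 genes described here are 3 transcription factor genes of the SoxF group (Sox18, Sox17 and Sox7), 6 genes that mark or signal in the endothelium (Pecam1, Cdh5, Emcn, Kdr, Flt1 and Tek) and Vegfa, the growth factor that 2 of those receptors bind. They were chosen by name from the 54532 genes of the deposited count table, to ask whether the low 60-day level of Sox18 is shared by endothelial genes in general. The 60-day values of Sox18 prompted that choice, so they are given as a description with no test. All 10 genes passed the filter on low counts, as did 15224 genes in all. Vegfa encodes a ligand made by many cell types and is not an endothelial identity gene, so it is kept apart from the others below.

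The samples were submandibular salivary glands of wild-type (WT) mice that had all received 10 Gy of radiation. The 3 groups of 3 glands were collected 30, 60 and 90 days later. RNA came from thick tissue sections of each gland. Non-irradiated glands were not analysed here, so each comparison is between irradiated time points, and time after radiation cannot be told apart from age, which the labels do not give.

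SoxF factors bind DNA through a shared domain, the HMG box, and act in the formation of blood and lymphatic vessels, where they can partly stand in for one another. Endothelial cells are held together by the junction proteins PECAM-1 and VE-cadherin, and carry receptors for vascular endothelial growth factor (VEGF) and for angiopoietins. VEGF-A is produced by the surrounding tissue, acts through VEGFR-2, and is held back by the decoy-like VEGFR-1. In a salivary gland these vessels supply the fluid for saliva and run alongside the acini and ducts.

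The coding sequence within the HMG box region is shown for Sox18 and Sox7 because it is where the coding sequences of the pair are most alike. It is thus where shared short reads would be looked for first. Sox17 was not compared in this way. Each line is a window of 120 bases within 1 exon, read 5′ to 3′ on the coding strand from GRCm38, and capitals mark bases that differ from Sox18. The Sox18 window lies at chr2:181670869-181670988 on the minus strand and the Sox7 window at chr14:63947763-63947882 on the plus strand.
Sox18: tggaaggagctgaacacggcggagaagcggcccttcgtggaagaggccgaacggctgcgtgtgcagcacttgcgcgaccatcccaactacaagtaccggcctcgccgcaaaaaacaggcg
Sox7: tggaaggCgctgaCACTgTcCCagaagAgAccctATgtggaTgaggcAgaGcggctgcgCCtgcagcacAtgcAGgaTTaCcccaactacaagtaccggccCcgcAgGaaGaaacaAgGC
Sox7 matched Sox18 at 90 of the 120 bases (75%), and the longest run of bases shared exactly by their transcripts was 20. A read longer than that cannot match both of these transcripts exactly. Another window of the pair matched equally well and is not shown. How the authors' counting treated reads that map to more than 1 gene is not given in the sources used here.

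Library totals ran from 16541396 to 17179500 counts at 30 days, from 21722141 to 24880803 at 60 days and from 20410818 to 26065856 at 90 days. The secretory gene Mucl2 alone took 31.4% to 42.8% of the counts. Levels are given as CPM, a rate per library total after TMM scaling, which corrects library totals for such dominant genes. A level of 3 counts corresponds to 0.101 to 0.213 CPM, depending on the library. Differences are log2 fold changes with their standard error (SE), from an edgeR fit to all 9 libraries. A gene passed the test when its Benjamini-Hochberg adjusted p from edgeR's quasi-likelihood test was under 0.05.

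Sox18 is needed for lymphatic and blood vessel development, and spans chr2:181669836-181671640 on the minus strand. The 30-day libraries held Sox18 at 3.54, 4.40 and 5.03 CPM, from 50, 74 and 85 counts. The 60-day libraries held it at 2.68, 3.08 and 1.67 CPM, from 62, 68 and 40 counts, and the 90-day libraries at 6.17, 8.73 and 7.83 CPM, from 183, 254 and 156 counts. Each 60-day library was below all 6 others, as for 1.90% of all genes tested. Each 90-day library was above all 6 others, as for 3.00% of them. The means were 4.33 ± 0.747, 2.47 ± 0.725 and 7.58 ± 1.30 CPM (SD, n = 3 each). The 60-day level was lower than the mean of 30 and 90 days by a log2 fold change of -1.21 ± 0.22 (SE). Set against 30 days alone the difference was -0.81 ± 0.26, and the 90-day level exceeded the 60-day level by 1.62 ± 0.24. These comparisons share the 60-day libraries. Without the third 60-day library, the lowest of all, the difference from the mean of 30 and 90 days was -0.99.

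Sox17, which acts in arterial endothelium, spans chr1:4490931-4497354 on the minus strand. Its level was 2.27, 2.50 and 2.25 CPM at 30 days, 1.42, 2.08 and 0.918 CPM at 60 days, and 3.03, 2.34 and 1.51 CPM at 90 days. All 3 of its 60-day libraries were below the 30-day ones, as for 8.22% of all genes tested, but the third 90-day library lay within the 60-day range. The 60-day level differed from the mean of the other time points by -0.66 ± 0.31 on the log2 scale, and by -0.40 without the third 60-day library. An annotated gene, Gm37587, overlaps Sox17 on the opposite strand. The strand setting of the counting is not given in the sources used here, so reads of the pair cannot be told apart.

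Sox7, the remaining SoxF gene (chr14:63943673-63950732, plus strand), was near the limit of these libraries. Its mean rate was 0.656 ± 0.266 CPM for day 30, 0.461 ± 0.0555 for day 60 and 0.756 ± 0.133 for day 90 (SD, n = 3 each), from 6 to 25 counts a library. The 60-day libraries were below all 90-day libraries, as for 8.30% of all genes tested, and overlapped those of 30 days. Its 60-day difference from the mean of the other time points was -0.61 ± 0.46, an SE too large to place it near Sox18 or near zero. The 3 SoxF genes thus lay on the same side at 60 days, with only Sox18 separated from both other time points.

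**Figure D1:**
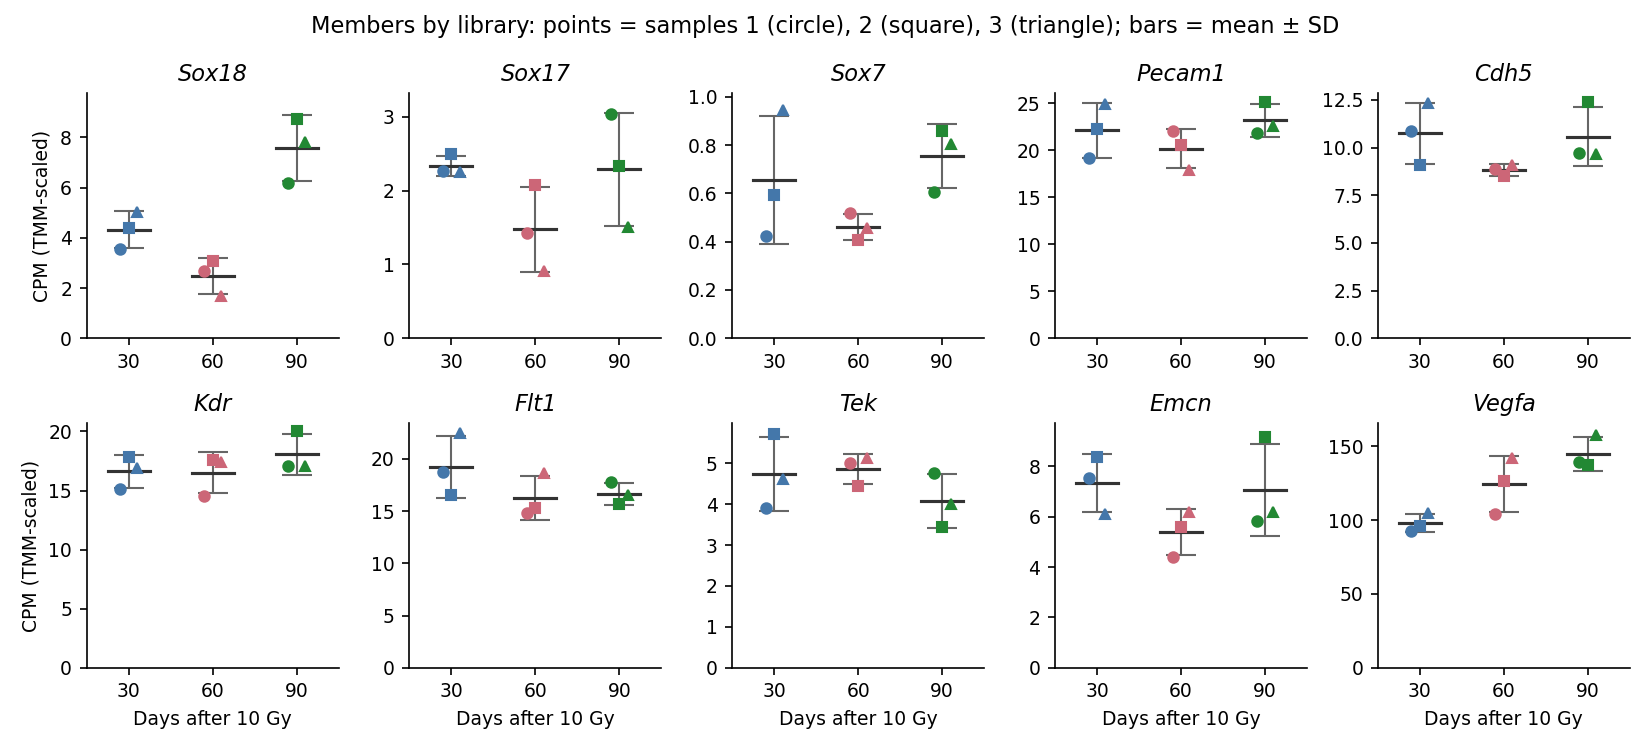
Level of each gene (CPM after TMM scaling, linear axis from 0) against days after 10 Gy. Circles, squares and triangles are samples 1, 2 and 3, and bars are the mean ± SD of 3 libraries. Sox18 is the gene whose 60-day libraries, at 1.67 to 3.08 CPM, all lie below the other 6, while Vegfa is lowest at 30 days.

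The junction and surface genes gave smaller differences. Pecam1 encodes the adhesion molecule PECAM-1 (chr11:106654217-106750628, minus strand). It measured 19.1, 22.3 and 24.9 CPM at 30 days, 22.1, 20.5 and 17.9 CPM at 60 days, and 21.9, 25.2 and 22.5 CPM at 90 days. The time points overlapped, and the 60-day difference from the mean of the others was -0.17 ± 0.11 on the log2 scale. Cdh5 encodes VE-cadherin (chr8:104101625-104144511, plus strand), and Gm29682 overlaps it on the opposite strand. The Cdh5 level was 10.9, 9.09 and 12.3 CPM at 30 days, a narrow 8.89, 8.50 and 9.10 CPM at 60 days, and 9.71, 12.4 and 9.64 CPM at 90 days. The 60-day libraries lay below all 90-day libraries, as for 8.30% of all genes tested. The highest 60-day library just exceeded the lowest 30-day library, and the 60-day difference was -0.27 ± 0.14. Emcn encodes endomucin, a sialoglycoprotein of capillary and venous endothelium (chr3:137341067-137432185, plus strand). It was at 7.51, 8.38 and 6.10 CPM at 30 days, 4.40, 5.61 and 6.18 CPM at 60 days, and 5.83, 9.14 and 6.17 CPM at 90 days. Its groups overlapped in the lower 30-day and 90-day libraries, and its 60-day difference was -0.42 ± 0.19.

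The receptor genes showed the least. Kdr encodes VEGFR-2, the main signalling receptor for VEGF-A (chr5:75932827-75978458, minus strand). Its means were 16.6 ± 1.39, 16.5 ± 1.73 and 18.1 ± 1.72 CPM in the order of the time points (SD, n = 3 each), with a 60-day difference of -0.07 ± 0.11. Flt1 encodes VEGFR-1 (chr5:147561604-147726011, minus strand). The Flt1 means were 19.3 ± 2.96, 16.3 ± 2.12 and 16.7 ± 1.05 CPM, with overlapping libraries and a 60-day difference of -0.14 ± 0.12. Tek encodes the angiopoietin receptor TIE2 (chr4:94739289-94874976, plus strand). Its 60-day libraries, at 5.01, 4.43 and 5.13 CPM, sat inside the 30-day range of 3.90 to 5.71 CPM, and its difference was 0.14 ± 0.19, on the other side of zero from Sox18. These 60-day differences were small enough to depend on single libraries. Kdr ran from -0.12 without the second 60-day library to 0.01 without the first, Flt1 from -0.25 without the third 60-day library to -0.07 without the third 30-day library, and Tek from 0.09 without the first 30-day library to 0.22 without the second. Pecam1 was at -0.08 without the third 60-day library.

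Over the 10 genes, 8 had a 60-day level below the mean of 30 and 90 days, with a median log2 fold change of -0.22. Of all 15224 genes tested, 48.7% lay below zero in that comparison and the median was 0.01. Without Sox18 and Vegfa the count was 7 of 8, with a median of -0.22. The complete separation of the 60-day libraries below the other 6 was seen for Sox18 alone among the 10, against 1.90% of all genes tested. Since the genes were chosen with that contrast in view, nothing further is read from these counts. The ratio of the highest to the lowest library was 5.23 for Sox18, 3.31 for Sox17 and 2.33 for Sox7. For the other 7 genes it ran from 1.38 (Kdr) to 2.08 (Emcn).

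Between genes, levels can be compared only per length, and RPKM, the CPM divided by exon length in kilobases, was used for that. Vegfa was the most abundant at a mean of 28.6 RPKM over the 9 libraries. Pecam1 followed at 3.50, Sox18 at 2.96, Cdh5 at 2.39, Kdr at 1.89, Flt1 at 1.29, Emcn at 1.22 and Tek at 0.967 RPKM. Sox17 and Sox7 were lowest, at 0.426 and 0.189 RPKM. Sox18 changed place in this order with time, with 2.67 RPKM at 30 days, 1.53 RPKM at 60 and 4.68 RPKM at 90. In all 9 libraries Sox18 was the most abundant SoxF transcript per length.

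Endothelial genes outside the 10 were examined next, in 6 lists of 64 genes, of which 56 passed the filter. At 60 days 42 of the 56 lay below the mean of 30 and 90 days, with a median log2 fold change of -0.30. None passed the test, against 0.256% of all genes, 9 of the 56 had an unadjusted p under 0.05 against 9.45% of all genes, and DESeq2 called 1, Egfl7. In the pan-endothelial list, genes expressed in most vessels, 21 of 24 lay lower with a median of -0.31. Of the 2 with the highest CPM, Eng, a TGF-beta co-receptor, differed by -0.07 ± 0.10, and Podxl, a sialomucin of the luminal surface, by -0.08 ± 0.10. Against 30 days alone 38 of the 56 lay lower, with a median of -0.20, where 50.4% of all genes did. For the pan-endothelial list the count was 17 of 24. Between 60 and 90 days 45 of the 56 were higher at 90 days, with a median of 0.43. The comparison with the mean thus joins a smaller difference from 30 days and a larger one from 90 days. In bulk tissue, fewer endothelial cells and less RNA per cell cannot be told apart.

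The vessel-type lists were small. Arterial genes lay lower in 4 of 6, venous genes in 3 of 4, lymphatic genes in 3 of 3 and capillary genes in 3 of 6, with median log2 fold changes of -0.47, -0.34, -0.41 and -0.06. Sema3g, an arterial semaphorin, differed by -0.70 ± 0.25, and Efnb2, the arterial ephrin, by 0.02 ± 0.09. Vwf, the clotting factor carrier of venous endothelium, differed by -0.48 ± 0.27 and Ephb4, the partner receptor of ephrin-B2, by 0.08 ± 0.09. Plvap, a component of capillary fenestrae, differed by -0.22 ± 0.10. Of the lymphatic genes, Flt4 (VEGFR-3) differed by -0.21 ± 0.21 and Mmrn1 by -0.41 ± 0.34. Lyve1, a hyaluronan receptor of lymphatic vessels named after its value was seen, differed by -0.91 ± 0.42 (edgeR adjusted p = 0.506), while Prox1 did not pass the filter and Ccl21a had no count in any library. None of the genes in these 4 lists passed edgeR's test, and 1 arterial and 1 lymphatic gene had an unadjusted p under 0.05.

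Endothelial transcription factors other than SoxF lay lower in 8 of 13, with a median of -0.22. None passed edgeR's test, and 2 had an unadjusted p under 0.05, as did 9.45% of all genes. Against 30 days alone 7 of the 13 lay lower, with a median of -0.03. Between 60 and 90 days 9 of the 13 were higher at 90 days, with a median of 0.31. Epas1, which encodes the hypoxia factor HIF-2 alpha and was the most abundant of these factors, differed by 0.02 ± 0.09, and Lmo2 by 0.15 ± 0.17. Epas1, Ephb4 and Efnb2 had mean levels of 15.1, 6.94 and 4.40 RPKM, beside 3.50 RPKM for Pecam1. Which cells supplied their RNA cannot be told in bulk tissue, so their differences need not be those of endothelium. Erg, an ETS factor that maintains endothelial identity, differed by -0.72 ± 0.34 (edgeR adjusted p = 0.515) and is named here after its value was seen. The Sox genes of other groups divided evenly, with 4 of 8 lower and a median of -0.04. Sox9 and Sox10, the most abundant of those in this epithelium-rich organ, differed by -0.13 ± 0.08 and 0.04 ± 0.09.

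**Figure D2:**
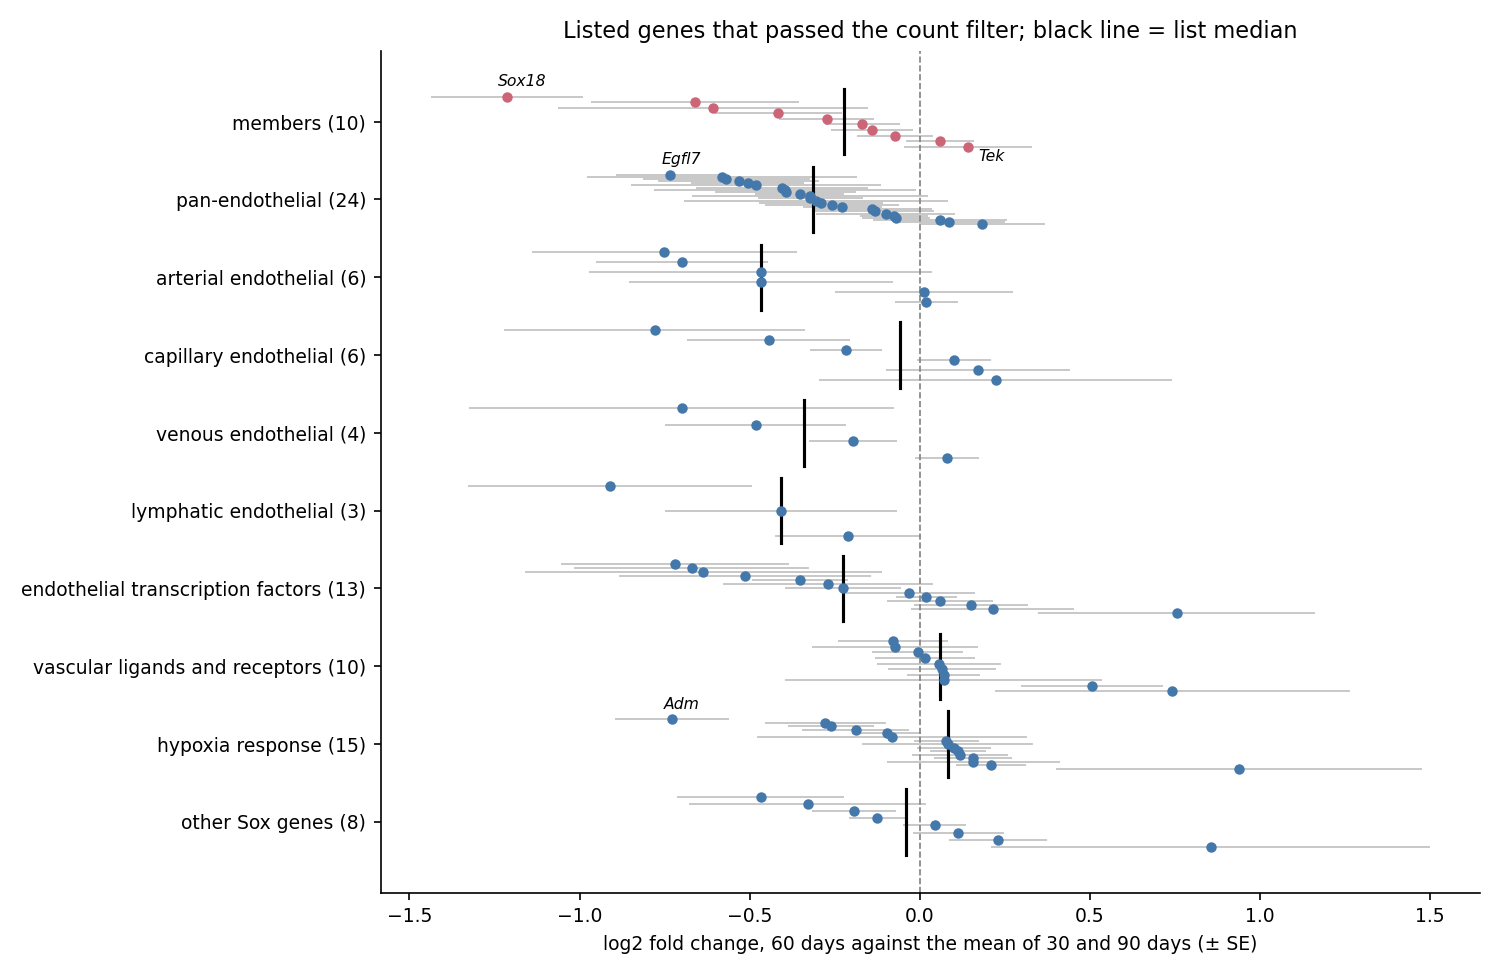
Log2 fold change of the 60-day level against the mean of the other time points (horizontal axis, points with SE bars) for the genes of each list that passed the count filter, with their number in brackets and the list median as a black line. The endothelial lists have medians from -0.47 to -0.06, and Sox18, at -1.21, lies further to the left than any other gene plotted.

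Of the endothelial genes outside the 10, 4 of 56 had all 3 of their 60-day libraries below the other 6, against 1.90% of all genes tested. They were Egfl7 and, named after their values were seen, Tie1, Clec14a and Aplnr. Egfl7 encodes a protein secreted by endothelial cells. It measured 6.66, 6.72 and 7.28 CPM at 30 days, 5.09, 5.20 and 4.01 CPM at 60 days, and 8.46, 10.3 and 8.53 CPM at 90 days. Egfl7 rose between 60 and 90 days by 0.94 ± 0.18 (edgeR adjusted p = 0.0261), the single call among the 56, where 0.256% of all genes were called. That call was lost when the second 30-day, the second or the third 60-day, or the second or the third 90-day library was left out, with adjusted p-values up to 0.199. Against the mean of 30 and 90 days the 60-day level of Egfl7 differed by -0.73 ± 0.16 (edgeR adjusted p = 0.0637), which did not pass. Tie1, the orphan receptor that partners TIE2, had means of 8.80, 7.37 and 10.1 CPM at the 3 time points, and its 60-day difference was -0.35 ± 0.13 (edgeR adjusted p = 0.363).

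To place Sox18 beside the endothelium of the same library, its log2 level was set against the mean log2 level of the 24 pan-endothelial genes. That mean was 2.29, 2.24 and 2.36 at 30 days, 2.18, 2.06 and 2.00 at 60 days, and 2.44, 2.60 and 2.33 at 90 days, so the 60-day libraries were the lowest 3. Relative to it Sox18 stood at -0.42, -0.07 and -0.00 at 30 days, at -0.71, -0.40 and -1.18 at 60 days, and at 0.21, 0.54 and 0.65 at 90 days. The 60-day range overlapped the 30-day range and stayed below the 90-day range. The relative 60-day value differed from the mean of the others by -0.91 on the log2 scale, beside -1.21 for Sox18 itself. With Pecam1, Cdh5, Emcn, Kdr, Flt1 and Tek in place of the list the difference was -1.06. For the remaining genes the same relative difference was -0.37 (Sox17), -0.20 (Sox7), -0.10 (Emcn), 0.04 (Cdh5), 0.13 (Pecam1), 0.16 (Flt1), 0.23 (Kdr) and 0.45 (Tek). These values describe the libraries and carry no test.

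**Figure D3:**
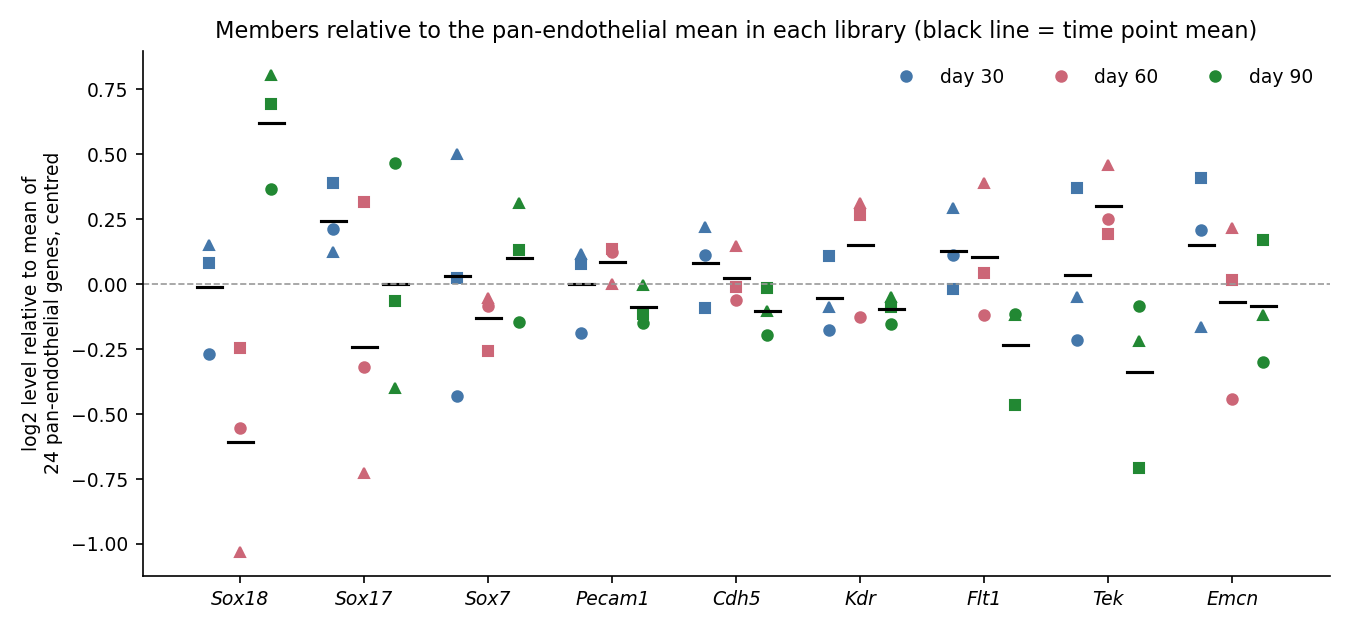
Log2 level of each gene minus the mean log2 level of 24 pan-endothelial genes in the same library, centred on each gene's own mean. Blue, red and green are 30, 60 and 90 days, shapes are sample numbers, and black lines are time point means. Sox18 has the widest distance between 60 and 90 days, while Pecam1 and Cdh5 stay close to zero at each time point.

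Among 13019 genes with a mean of at least 1 CPM, the genes whose course over the 9 libraries was most like that of Sox18 were found by the root mean square difference of centred log2 CPM. Egfl7 was nearest at 0.33, followed by Trbc1, a T cell receptor constant region gene, at 0.35, and Adm, the vasodilator peptide adrenomedullin, at 0.35. Id3, an inhibitor of helix-loop-helix factors, was at 0.37 and Tspan18, a tetraspanin, at 0.39. By the same measure Sox17 ranked 378, Pecam1 771, Cdh5 1138, Emcn 1377, Kdr 2068, Flt1 6293 and Tek 11230. Sox7 was under 1 CPM and was not ranked. Likeness was measured on the libraries that showed the Sox18 pattern, so it is a description.

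**Figure D4:**
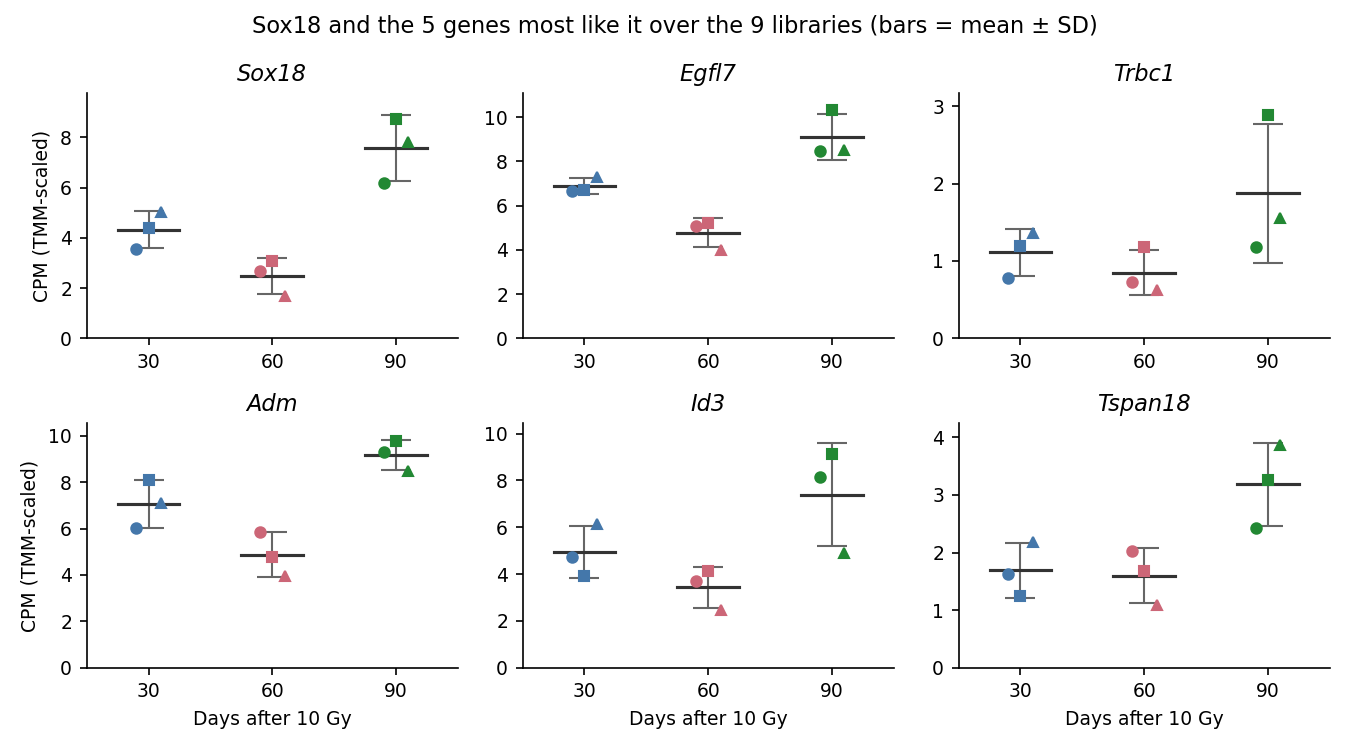
Level (CPM after TMM scaling, linear axis from 0) of Sox18 and the 5 genes most like it over the 9 libraries, by days after 10 Gy. Points are libraries with shapes for sample numbers, and bars are the mean ± SD of 3. In each panel the 60-day mean is the lowest and the 90-day mean the highest.

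Adm was the only gene of the hypoxia response list to pass in any of the 4 comparisons. Its means were 7.07 ± 1.03, 4.88 ± 0.956 and 9.18 ± 0.648 CPM in the order of the time points (SD, n = 3 each). Adm rose between 60 and 90 days by 0.92 ± 0.19 (edgeR adjusted p = 0.0428). The call was lost in 7 of the 9 fits that left out 1 library, all but those without the first 30-day or the first 60-day library, with adjusted p-values up to 0.267. The hypoxia list as such lay on neither side, with 6 of 15 genes lower at 60 days and a median of 0.08. Hif1a and the prolyl hydroxylase gene Egln1, the 2 members with the highest CPM, differed by 0.11 ± 0.08 and 0.08 ± 0.10.

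Vegfa (chr17:46016993-46032369, minus strand) followed another course. It was at 92.9, 96.4 and 104.8 CPM at 30 days, 104.1, 126.8 and 142.0 CPM at 60 days, and 139.2, 137.4 and 157.8 CPM at 90 days. All 90-day libraries were above all 30-day libraries, as for 11.4% of genes tested, and the 60-day libraries overlapped both groups. Vegfa rose from 30 to 90 days by 0.56 ± 0.12 on the log2 scale (95% interval 0.32 to 0.81, edgeR adjusted p = 0.0105). In that comparison 3.57% of all genes passed, and 1.81% did so in the upward direction. The call was lost without the first or second 30-day library (adjusted p = 0.0594 and 0.0546) and without the third 90-day library (0.0678), while the difference stayed between 0.49 and 0.77 over the 15 alternatives. At 60 days Vegfa differed from the mean of the other time points by 0.06 ± 0.10, and by -0.04 without the third 60-day library.

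The endothelial genes among the 10, other than Sox18, did not pass between 30 and 90 days. Kdr, the receptor that VEGF-A acts through, differed by 0.12 ± 0.13 (edgeR adjusted p = 0.725), and Flt1 by -0.21 ± 0.14 (0.484). The difference was 0.07 ± 0.13 for Pecam1, -0.22 ± 0.22 for Tek, 0.19 ± 0.51 for Sox7, and between -0.05 and -0.02 for Emcn, Cdh5 and Sox17. With library-size scaling, which moves the median of all genes to 0.24, Sox17, Cdh5, Flt1 and Emcn turned positive, at 0.23, 0.21, 0.01 and 0.19. Sox18 differed by 0.80 ± 0.24, given without a test because its level chose the set.

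The list of vascular ligands and receptors outside the 10 holds VEGF, placental growth factor and angiopoietin genes with Nrp1, Nrp2, Pdgfb and Acvrl1. Of its 10 genes tested, 8 were higher at 90 than at 30 days, with a median of 0.20. None passed edgeR's test, and 3 had an unadjusted p under 0.05, as did 16.8% of all genes. Vegfb, the most abundant ligand of that list, differed by -0.26 ± 0.12 (edgeR adjusted p = 0.305) and the co-receptor gene Nrp1 by 0.12 ± 0.19. Vegfd, a ligand of VEGFR-3, had the largest difference of the list at 2.02 ± 0.68 (0.105), a fitted value that rests on only 1 to 4 counts a library at 30 days and 15 to 16 at 90 days. Pgf, the placental growth factor that binds VEGFR-1, differed by 0.75 ± 0.25 (0.115), and Angpt1, the ligand of TIE2, by 0.51 ± 0.17 (0.120). Vegfd, Pgf and Angpt1 are named after their values were seen.

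In the 56 endothelial genes, 18 were lower and 38 higher at 90 than at 30 days, where 47.9% of all genes were lower, and the median was 0.13 against 0.01. A single gene passed, downward, where 1.77% of all genes did. That gene was Rgcc, a cell cycle regulator of capillary endothelium and other cells. Rgcc was at 134.5, 99.9 and 99.3 CPM at 30 days, 98.2, 78.1 and 80.4 CPM at 60 days, and 60.1, 52.6 and 59.2 CPM at 90 days. Its 90-day libraries lay below all 6 others, as for 3.43% of all genes tested. Rgcc fell from 30 to 90 days by a log2 fold change of -0.96 ± 0.13 (edgeR adjusted p = 0.000408) and kept its call in each of the 15 alternatives. Rgcc also carries most of the summed capillary list, which went from 140.4 to 183.5 CPM at 30 days to 94.9 to 98.8 CPM at 90 days, although 4 of its 6 genes were higher at 90 days.

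**Figure D5:**
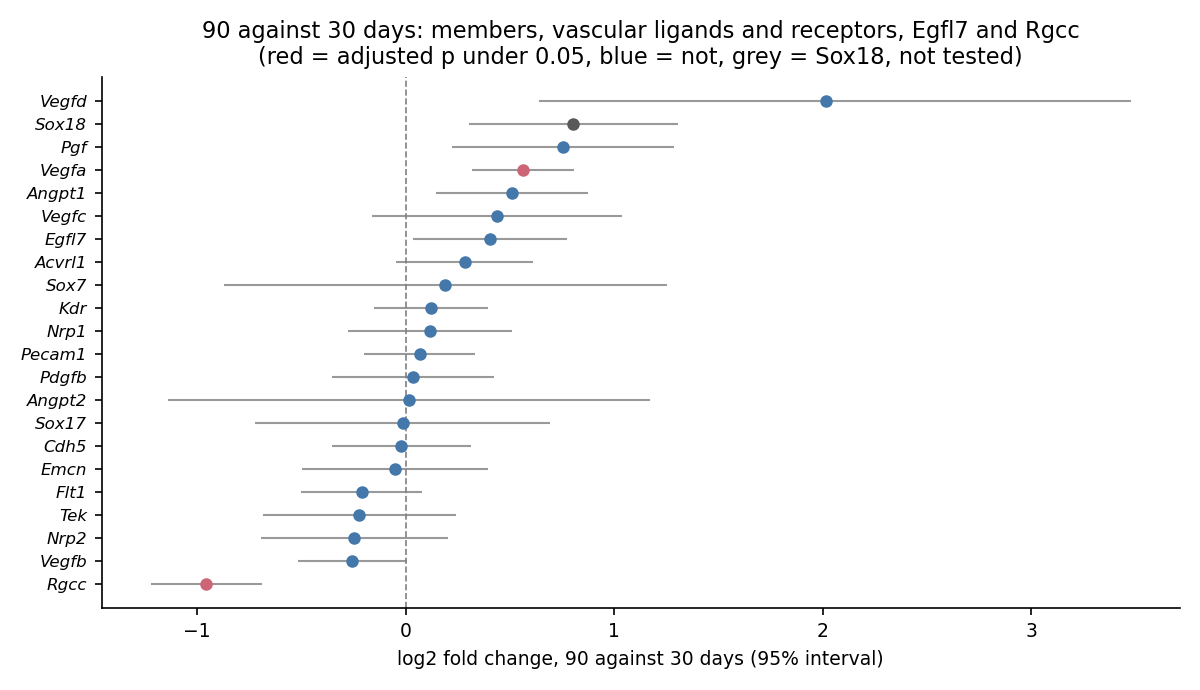
Log2 fold change of 90 against 30 days with its 95% interval (horizontal axis) for the 10 genes, the vascular ligands and receptors that passed the filter, Egfl7 and Rgcc. Red points passed the test, blue points did not, and Sox18, in grey, was not tested. Vegfa, at 0.56, and Rgcc, at -0.96, passed.

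Markers of other cell types moved with these genes in part. At 60 days all 5 red blood cell genes lay below the mean of the other time points, with a median of -0.71. None passed edgeR's test or had an unadjusted p under 0.05. Their summed level ran from 43.9 to 84.5 CPM at 30 days, 43.2 to 72.6 at 60 days and 74.5 to 229.1 at 90 days. The 229.1 CPM came from the second 90-day library, beside 74.5 and 104.8 in the others. Against 30 days alone 3 of the 5 lay lower, with a median of -0.11. All 5 leukocyte genes tested, of 6 listed, also lay below the mean of the other time points, with a median of -0.44. Of these, 1 had an unadjusted p under 0.05 and none passed the test. Their sums were 99.3 to 176.2, 114.7 to 144.1 and 144.4 to 232.3 CPM, the highest again from the second 90-day library. Against 30 days alone 3 of the 5 lay lower, with a median of -0.31. The second 90-day library also had the highest Sox18 level and pan-endothelial mean, at 8.73 CPM and 2.60. Without it, 42 of 57 endothelial genes lay lower at 60 days, with a median of -0.23. Mural cell genes, listed for pericytes and smooth muscle, were divided against the mean of the other time points. Of these, 5 of 11 were lower and the median was 0.13. Their sums ran from 282.0 to 394.8, 399.4 to 443.6 and 367.8 to 492.7 CPM. Acta2 and Myh11, at means of 198.3 and 121.0 CPM over the 9 libraries, carry most of these sums. The sums therefore say little about the other mural genes. Which cells supplied the Acta2 and Myh11 RNA, vessel or epithelium, cannot be told in bulk tissue, so the sums do not measure vessel support cells. Of the 4 platelet genes 2 could be tested, and they lay on opposite sides. The 60-day libraries of Pf4 all lay below the other 6, as for 1.90% of all genes tested. Its difference was -0.55 ± 0.25 (edgeR adjusted p = 0.505), and that of Itga2b was 0.09 ± 0.40. The platelet sums were 3.03 to 3.83, 2.71 to 3.19 and 3.72 to 4.26 CPM. Of 3 basal and myoepithelial genes 2 lay lower at 60 days, Krt5 by -0.29 ± 0.13 and Trp63 by -0.37 ± 0.19, and neither passed. The acinar genes were divided, with 1 of 3 lower and a median of 0.03. Bhlha15, which encodes an acinar factor, was higher and passed, at 0.63 ± 0.10 (edgeR adjusted p = 0.00644). The water channel gene Aqp5 differed by -0.18 ± 0.10 and Mucl2 by 0.03 ± 0.23, and neither passed. Of 3 duct genes 2 lay higher at 60 days and none passed. Egf differed by 1.09 ± 0.21 (edgeR adjusted p = 0.0574), Klk1 by 0.21 ± 0.15 and Krt19 by -0.39 ± 0.30. The 60-day libraries of Klk1 all lay above the other 6, as for 277 of the 15224 genes tested. Against 30 days alone all 3 duct genes were higher and 1 passed, as did 173 of the 15224 genes in that direction. The part of these cell types in the results for Sox18, Egfl7, Adm and the endothelial lists was not tested.

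Epithelial markers moved between 30 and 90 days, the comparison in which Vegfa and Rgcc passed. The 3 acinar genes were all lower after TMM scaling, and the water channel gene Aqp5 passed at -0.57 ± 0.12 (edgeR adjusted p = 0.0113). The 3 duct genes were all higher, and Egf passed at 2.09 ± 0.26 (edgeR adjusted p = 0.000770). The 3 basal and myoepithelial genes were all higher, and Trp63 passed at 0.92 ± 0.21 (edgeR adjusted p = 0.0289). Summed levels went from 379900 to 519900 CPM at 30 days to 265300 to 395700 CPM at 90 days for acinar genes. Mucl2, at a mean of 374700 CPM over the 9 libraries, carries nearly all of that sum. For duct genes the sums were 17680 to 22360 and then 22100 to 27110 CPM, mostly from Klk1 at a mean of 20420 CPM. Both the acinar and the duct ranges overlapped between the time points. For basal and myoepithelial genes the sums were 60.1 to 78.0 and then 80.1 to 123.3 CPM. The part of these cell types in the Vegfa and Rgcc results was not tested.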

How the data were processed

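The authors deposited raw read counts per Ensembl gene, which per the submitters' processing notes came from fastp, STAR and featureCounts on mm10. Annotation release, strand setting and versions are not given in the sources used here. Columns were matched to samples by day and number, and 3 columns that match no sample listed here were not used. Symbols were found for 54409 of 54532 identifiers, and positions came from GENCODE annotation of GRCm38. Genes were filtered with filterByExpr (minimum count 10), scaled with TMM, and tested with edgeR 4.0.16 (R 4.3.3) over all 9 libraries with time as the term, 6 residual degrees of freedom and adjustment over 15224 genes. RPKM used the summed exon length. Log2 CPM used a prior count of 2. The method was tested on simulated data. Alternatives were DESeq2 1.42.0, other scalings and filters, a block on sample number, and leaving out each library. Figures used matplotlib 3.10.9.

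The 10 genes and the lists were chosen with earlier results of these data known. Named from the lists were the genes that passed in any comparison and the 2 of each with the highest mean CPM, a ranking not corrected for length, together with the 5 genes most like Sox18. The labels do not say whether replicates are separate animals, so p-values measure only the spread between these samples. Counting error is set by library totals, and the floor of 3 counts covers counting error only, since the labels name no molecular identifiers.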

Additional observations from a re-analysis of the deposited data

How the results depend on the processing

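The Sox18 difference of 60 days from the mean of 30 and 90 days lay between -1.31 and -1.20 under other scalings, filters and tests and between -1.40 and -0.99 when 1 library was left out, and its level relative to endothelial genes between -1.10 and -0.70. The endothelial median stayed below 0, from -0.37 to -0.23. Counts of genes called depended on the settings. In that comparison (39 genes) they were 20 with library-size scaling, 148 with DESeq2 and 230 with no filter, and 13 to 81 with 1 library left out. For 60 against 30 days (238) they were 90, 376 and 459, and 73 to 244. For 90 against 60 days (39) DESeq2 called 150 and no filter 354, with 16 to 103 when 1 library was left out, and for 90 against 30 days (544) 867 and 1045, with 184 to 703. Library-size scaling also changed the division into higher and lower calls, from 31 and 8 to 12 and 8, from 173 and 65 to 79 and 11, from 14 and 25 to 19 and 9, and from 275 and 269 to 406 and 34. Of the 56 endothelial genes, DESeq2 called 1, 2 and 2 at 60 days against the mean, 90 against 60 and 90 against 30 days. The fit with no filter, which tested 63 endothelial genes, called 1, 3 and 2. With 1 library left out, 56 to 58 endothelial genes were tested. The range of calls was then 0 to 2 between 60 and 90 days and 1 to 2 between 30 and 90 days.

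The labels do not say whether sample numbers pair the libraries. Correlations of same-numbered libraries ran from -0.06 to 0.191, and 4 of 9 were most like a library of their own number. Correlations of differently numbered libraries are not given here, so these values do not settle the question. With the replicate block, 73 genes were called at 60 days against the mean and 92 for 90 against 60 days, and 2 endothelial genes in each comparison with 90 days.

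Small differences between 90 and 30 days had no stable sign. With 1 library left out they ran from -0.28 to 0.20 for Sox17, from -0.16 to 0.082 for Cdh5, from -0.29 to 0.066 for Emcn, from -0.028 to 0.15 for Pecam1 and from -0.032 to 0.54 for Sox7. Library-size scaling gave 0.23 for Sox17, 0.21 for Cdh5, 0.0093 for Flt1 and 0.19 for Emcn. Against the mean of 30 and 90 days, the 60-day difference also turned for Kdr, from -0.12 to 0.01, and Vegfa, from -0.04 to 0.18. That of Rgcc ran from -0.0084 to 0.18. The cause of these shifts was not tested. Depth limits Sox7 most, at 6 to 25 counts a library, and 3 libraries a group limit every comparison.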
